A study of Mus musculus with 24 samples.

Results

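The cytosolic heat shock genes described here are 10 genes of the mouse heat shock response and of the chaperone machinery it draws on: Hspa1a, Hspa1b and Hspa8 of the HSP70 family, the HSP110 gene Hsph1, the J-domain gene Dnajb1, the nucleotide exchange gene Bag3, the HSP90 genes Hsp90aa1 and Hsp90ab1, the small heat shock gene Hspb1 and the chaperonin gene Hspe1. They were taken by name from a table of 47593 genes, and all 10 were found. Hspe1 encodes the mitochondrial co-chaperonin HSP10, so the word cytosolic does not describe its product. Poly(A) RNA of the hippocampus was measured in male C57BL/6J mice aged 8 to 12 weeks, either wild type (WT) or Tob-KO, a knockout of the anti-proliferative gene Tob whose construction is described elsewhere. Mice were naive (not conditioned) or were taken at 15 min, at 1 h or at 3 h after the end of fear conditioning, in which a tone and foot shocks are given in a chamber. The 8 groups held 3 libraries each, stated to be biological replicates, with 28847989 to 41595972 counts per library. Naive mice were not reported to have been placed in the chamber, so the time comparisons hold the tone, the shock, the handling and the chamber together.

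The RNA of the targeted gene ran against the genotype label. Tob1 was at 33.7 to 44.4 CPM (counts per 1000000 counts of the library) in the 12 WT libraries and at 52.0 to 68.6 CPM in the 12 libraries labelled Tob-KO. Counts summed over a gene carry no information on the exon read, and every direction given by genotype is that of the libraries as labelled. The tissue label is brain and the design text names the hippocampus. Prox1 and C1ql2 of dentate granule cells were at 83.5 to 150 CPM and at 42.5 to 85.0 CPM, and Wfs1 and Fibcd1 of CA1 pyramidal cells were at 131 to 194 CPM and at 110 to 169 CPM. These markers were thus present in each of the 24 libraries. Choroid plexus genes (12 markers, Ttr among them) varied far more, with summed levels from 28.8 to 5033 CPM.

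HSP70 proteins bind unfolded stretches of other proteins, J-domain partners such as DNAJB1 bring them substrates and start their ATP hydrolysis, and exchange factors such as HSPH1 and BAG3 release the bound nucleotide so that the cycle can start again. HSP90 acts later, on proteins that are nearly folded. When misfolded protein accumulates, the transcription factor HSF1 binds heat shock elements, arrays of the unit GAA and its complement TTC, and raises transcription of inducible members such as Hspa1a, Hspa1b, Dnajb1 and Bag3, while Hspa8 and Hsp90ab1 are made at high levels in unstressed neurons.

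RefSeq promoter entries on GRCm38.p6, each 250 bases before and 50 bases after an annotated start, were matched for 7 of the 10 genes (all except Hspa8, Hsp90aa1 and Hsp90ab1). They were searched on both strands for GAANNTTC and TTCNNGAA, the 2 arrangements of a pair of units, and for the longer GAANNTTCNNGAA, which contains both. The windows of 30 bases below show the matches of the HSP70 pair and of Bag3, whose RNA is followed over time below, beside the longer arrays of Hspe1 and Hsph1. Each is written 5′ to 3′ on the strand of its gene, with the matched units in capitals.
Hspa1a, chr17:34972242-34972271, reverse strand: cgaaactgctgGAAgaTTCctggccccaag
Hspa1b, chr17:34959324-34959353, reverse strand: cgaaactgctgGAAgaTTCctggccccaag
Bag3, chr7:128523603-128523632, forward strand: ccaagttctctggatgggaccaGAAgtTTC
Hspe1, chr1:55088053-55088082, forward strand: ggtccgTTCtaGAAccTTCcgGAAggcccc
Hsph1, chr5:149636287-149636316, reverse strand: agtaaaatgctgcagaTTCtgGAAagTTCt
The match of Hspa1a and of Hspa1b lies 104 to 97 bases before the start in each gene, and these windows are the same. Over the 300 bases of both entries, 296 bases (98.7%) were identical. The match of Bag3 falls on transcribed bases 43 to 50, that of Hsph1 on transcribed bases 37 to 49 from the outer of its 2 annotated starts, and the array of Hspe1 lies 89 to 72 bases before the start.

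GAANNTTC was found in 6 of the 7 entries, Hspb1 included, and in the promoters of 9.04% of 27025 genes. TTCNNGAA was found in Hspe1 and Hsph1 and in 9.60% of genes. The longer GAANNTTCNNGAA was found in the same 2 of the 7 entries and in 0.662% of genes. No entry of the 7 held the cAMP response element TGACGTCA, which 2.03% of genes carried. Dnajb1, whose RNA level changed most of the 10 at 1 h with both genotypes combined, held none of these letters in its window. Exact matches alone were searched, so this says nothing of inexact arrays inside the window or of sites outside it. A match is a stretch of letters and not evidence of binding.

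The 10 genes spanned a wide range of RNA levels. To compare genes, the mean over 24 libraries was divided by the length of the longest annotated coding transcript. On this scale, Hsp90ab1 stood at 692 CPM per kb, Hspa8 at 662 and Hsp90aa1 at 346 CPM per kb, followed by Hsph1 at 95.5, Hspe1 at 54.3 and Dnajb1 at 18.6 CPM per kb. Hspb1 stood at 6.31 CPM per kb, Hspa1b at 4.70, Bag3 at 3.85 and Hspa1a at 3.54 CPM per kb. The ranges over libraries of Hsp90ab1 and Hspa8 overlapped, as did those of the 4 lowest genes. These ranges alone thus do not fix the order within these sets, and genes were not compared library by library. Hspa8, Hsp90aa1 and Hsp90ab1 together made up 88.7% to 90.9% of the summed CPM of the 10 genes in every library, and this sum lay between 4263 and 5390 CPM.

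The 10 genes also differed in how far replicate mice spread. Within groups, the standard deviation was 4.42% of the mean for Hsp90ab1, 4.95% for Hsp90aa1 and 5.79% for Hspa8. It was 23.1% for Hspa1a, 25.3% for Hspa1b and 26.1% for Hspb1, with 10.6% for Dnajb1, 9.92% for Hsph1, 9.61% for Bag3 and 7.99% for Hspe1. Much of this for the inducible genes came from replicate 2 of the Tob-KO label at 1 h: without it, a choice made after seeing the data, the value was 12.0% for Hspa1a, 18.2% for Hspa1b, 7.75% for Dnajb1 and 7.85% for Bag3, below the 10.2% of Hsph1 for the last 2, while Hspb1 was at 26.4%. Counts of Hspb1 were the lowest, 102 to 269 reads per library, and those of Hspa1a were 259 to 597. Counting error alone is thus a minor part of the spread of these 2 genes over the 24 libraries. Bag3 had 223 to 460 reads with a smaller spread, so counting error is a larger part there. Since the RNA is that of whole hippocampus, a change in the number of cells of one type and a change of RNA per cell cannot be told apart.

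**Figure D1:**
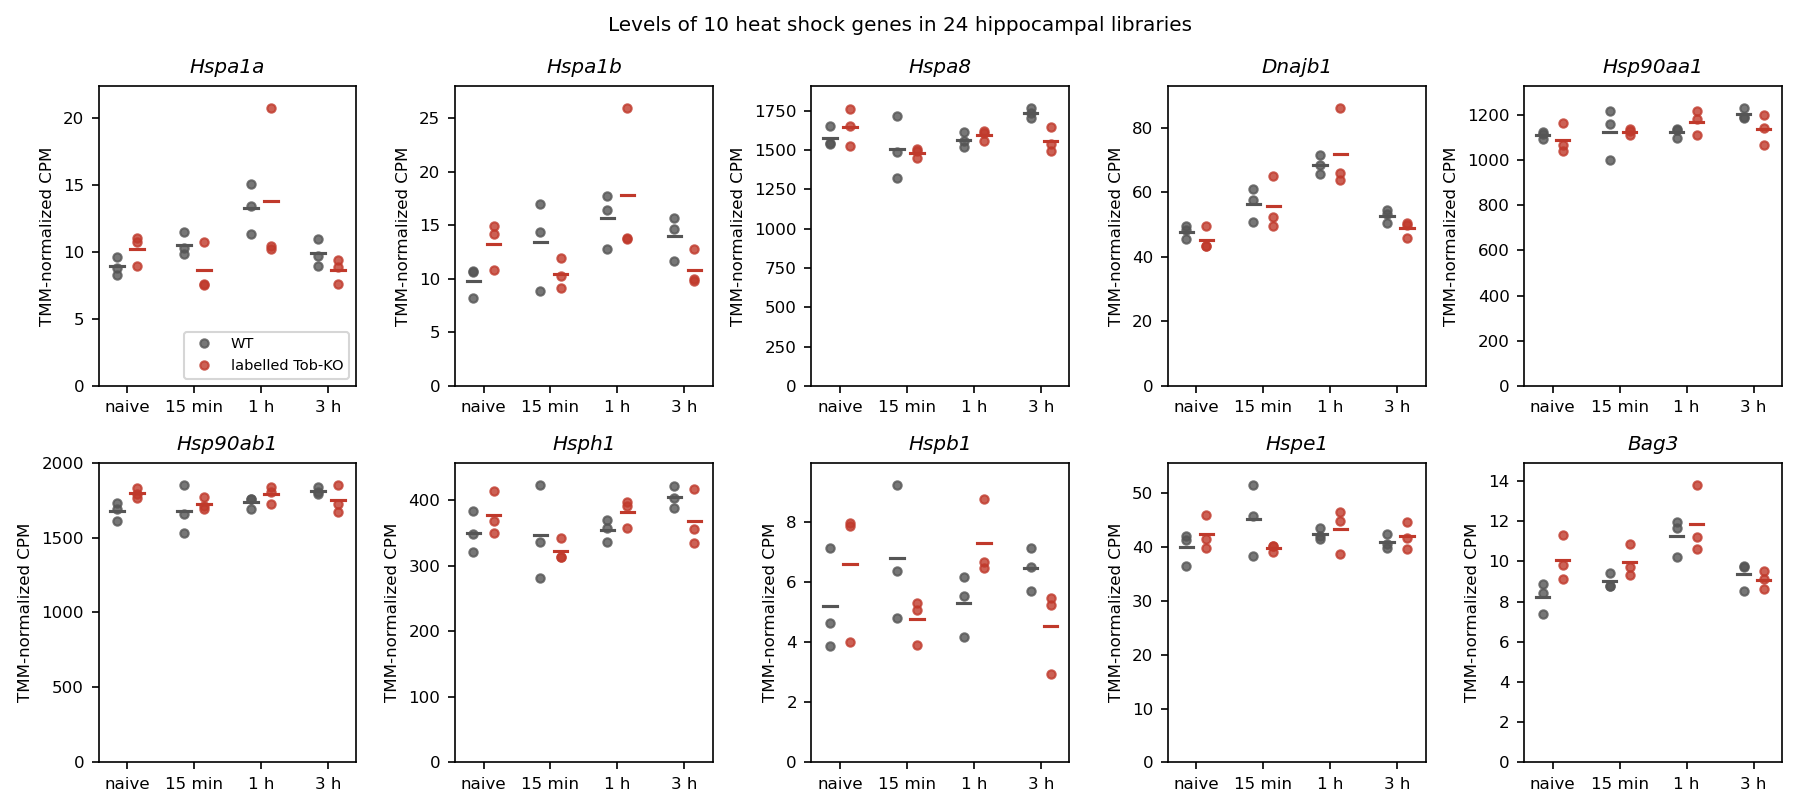
TMM-normalized CPM of each of the 10 heat shock genes (vertical axis from 0) in naive mice and at the 3 times after conditioning. Points are libraries (grey WT, red labelled Tob-KO, 3 per group) and bars are group means. Dnajb1 is at 63.6 to 86.0 CPM in the 6 libraries of 1 h and at 43.2 to 49.5 CPM in the 6 naive libraries, while Hspa8, Hsp90aa1 and Hsp90ab1 stay within narrow bands.

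The first question of the time course is which of these genes changed after fear conditioning. Of the 10 genes, 3 inducible ones rose at 1 h when both genotypes were combined: Dnajb1 by 1.51-fold, Hspa1a by 1.42-fold and Bag3 by 1.27-fold over naive mice. All 3 were lower again at 3 h than at 1 h. The 1 h calls of Dnajb1 and Bag3 held in each of 24 fits that left out 1 library, whereas that of Hspa1a was lost in 9 of them, and without replicate 2 of the Tob-KO label at 1 h its log2 fold change was 0.29 (edgeR adjusted p = 0.126). Hspa8, the HSP90 genes, Hsph1, Hspb1 and Hspe1 were not called at any time, and Hspa1b narrowly missed the threshold at 1 h. A gene was called at a Benjamini-Hochberg adjusted p of at most 0.05 from edgeR's quasi-likelihood test over the 24 libraries, which tested 19500 genes and all 10 members. Of all genes tested, 5.89% were called at 1 h, 2.36% as higher.

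Dnajb1 encodes a cytosolic J-domain protein of the HSP40 class and lies at chr8:83608193-83612653 on the forward strand (GRCm38), with no 150-base transcript window found in another gene. In naive mice it was at 48.2, 45.5 and 49.4 CPM (WT) and 43.2, 43.2 and 49.5 CPM (labelled Tob-KO). The values at 15 min were 61.0, 57.7 and 50.6 CPM (WT) and 65.0, 49.5 and 52.2 CPM (labelled Tob-KO). At 1 h the values were 65.6, 68.3 and 71.5 CPM (WT) and 66.1, 86.0 and 63.6 CPM (labelled Tob-KO). Every library of 1 h was thus above every naive library, in both genotypes. The Dnajb1 values at 3 h were 54.4, 50.3 and 53.2 CPM (WT) and 49.9, 50.5 and 45.9 CPM (labelled Tob-KO), below every library of 1 h. The naive and 3 h libraries overlapped.

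Against naive mice in both genotypes, the log2 fold change of Dnajb1 was 0.59 at 1 h (standard error 0.073, edgeR adjusted p = 0.000207) and 0.27 at 15 min (standard error 0.073, edgeR adjusted p = 0.0410). Of all genes, 4.35% were called at 15 min and 1.6% as higher, and Dnajb1 was the 1 member of the 10. From 15 min to 1 h it rose by 0.33 (edgeR adjusted p = 0.0481, with 0.41% of all genes called and 0.226% higher). That call was lost in 18 of the 24 fits without 1 library (edgeR adjusted p = 0.0524 to 0.156), and the libraries of both times overlapped, with 65.0 CPM the highest at 15 min and 63.6 CPM the lowest at 1 h. From 1 h to 3 h it fell by 0.47 (standard error 0.073, edgeR adjusted p = 0.00126). Its 3 h value of 0.12 against naive was not called (95% confidence interval -0.03 to 0.27, edgeR adjusted p = 0.621). Within genotypes at 1 h, Dnajb1 was the 1 member called, at 0.52 in WT (edgeR adjusted p = 0.0406, 0.185% of all genes called) and at 0.67 in the libraries labelled Tob-KO (edgeR adjusted p = 0.00873, 1.13% of all genes called).

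The 15 min call of Dnajb1 stands beside shifts in cell type markers. Choroid plexus markers were lower there than in naive mice, with a median log2 fold change of -2.35 over 12 markers. By edgeR 0 of them were called and 9 had an unadjusted p under 0.05. Their summed level was 28.8 to 3443 CPM against 46.8 to 5033 CPM, with none at 0. The 6 endothelial markers had a median of 0.33, with 4 at an unadjusted p under 0.05. Of these markers 2, Cldn5 and Flt1, were called higher. The 6 red cell and neutrophil markers had a median of 0.44, the 6 fibroblast markers 0.20 and the 6 microglia markers 0.10, with 0 called by edgeR in each list and 4, 0 and 3 at an unadjusted p under 0.05. With the choroid plexus score as a covariate, the 15 min value of Dnajb1 was 0.24 and not called (edgeR adjusted p = 0.0703). The 1 h value was 0.60 with that covariate and called (edgeR adjusted p = 0.000130), where the choroid plexus median against naive was 0.09. Of 6 astrocyte markers, 2 (Aqp4 and Gja1) were called higher at 15 min and again at 1 h, with list medians of 0.08 and 0.00, and at 1 h 1 of the 6 endothelial markers, Ly6c1, was called lower. The part of endothelial cells, blood cells, fibroblasts, microglia and astrocytes in these values was not tested.

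Hspa1a and Hspa1b are near-identical stress-inducible HSP70 genes that lie 9951 bp apart on the reverse strand of chromosome 17 (GRCm38), Hspa1a at 34969190 to 34972156 and Hspa1b at 34956436 to 34959238, each with 1 exon. Of all 150-base windows of their transcripts, 38.1% of those of Hspa1a occur in Hspa1b and 40.5% of those of Hspa1b occur in Hspa1a. How reads that fit both were counted is not given in the sources used here, so the split between the genes is uncertain. Hspa1a also shares 564 bp of exon with Gm20481 on the opposite strand.

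In naive mice Hspa1a was at 8.31, 9.64 and 8.82 CPM (WT) and 8.95, 10.7 and 11.0 CPM (labelled Tob-KO). The values at 15 min were 9.84, 11.5 and 10.3 CPM (WT) and 10.7, 7.64 and 7.55 CPM (labelled Tob-KO). The values at 1 h were 11.4, 13.4 and 15.1 CPM (WT) and 10.2, 20.7 and 10.5 CPM (labelled Tob-KO). The WT libraries of 1 h thus lay above every naive library, whereas 2 of the 3 labelled Tob-KO lay inside the naive range of their genotype and replicate 2 lay far above it. The Hspa1a values at 3 h were 11.0, 8.96 and 9.73 CPM (WT) and 8.88, 9.37 and 7.63 CPM (labelled Tob-KO).

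Hspa1b followed at somewhat higher levels. It was at 8.17, 10.7 and 10.6 CPM in naive WT and at 10.8, 14.9 and 14.1 CPM in the naive group labelled Tob-KO. The values at 1 h were 12.8, 16.4 and 17.7 CPM (WT) and 13.8, 25.9 and 13.7 CPM (labelled Tob-KO). In WT the 1 h and naive libraries did not overlap, and in those labelled Tob-KO only replicate 2 was outside the naive range. At 15 min Hspa1b ran from 8.91 to 17.0 CPM over both genotypes and at 3 h from 9.80 to 15.7 CPM, so that both times overlapped naive mice.

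In both genotypes at 1 h against naive, the log2 fold change was 0.50 for Hspa1a (standard error 0.14, edgeR adjusted p = 0.0408) and 0.55 for Hspa1b (standard error 0.17, edgeR adjusted p = 0.0553). The difference between a call and none thus rests on similar fold changes. With the counts of both genes summed, an alternative chosen after seeing the data, the log2 fold change was 0.53 (standard error 0.15, edgeR adjusted p = 0.0385). From 1 h to 3 h, Hspa1a fell by 0.56 (edgeR adjusted p = 0.0339), Hspa1b had -0.44 (edgeR adjusted p = 0.159), and the sum had -0.49 and was not called (edgeR adjusted p = 0.0701).

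Bag3 encodes a co-chaperone that couples HSP70 to HSPB8 and to selective autophagy. It lies at chr7:128523616-128546981 on the forward strand (GRCm38), and none of the 150-base windows of its transcript occur in another gene. In naive mice it was at 8.45, 8.87 and 7.36 CPM (WT) and 9.12, 11.3 and 9.80 CPM (labelled Tob-KO). At 15 min the values were 8.79, 9.43 and 8.78 CPM (WT) and 10.9, 9.33 and 9.71 CPM (labelled Tob-KO). At 1 h they were 10.2, 11.7 and 12.0 CPM (WT) and 10.6, 13.8 and 11.2 CPM (labelled Tob-KO). WT libraries of 1 h lay above every naive WT library, but 1 naive library labelled Tob-KO reached into the 1 h range. The Bag3 values at 3 h were 9.75, 9.80 and 8.54 CPM (WT) and 9.50, 9.11 and 8.64 CPM (labelled Tob-KO), and each of these was below each library of 1 h. The log2 fold change of Bag3 at 1 h was 0.35 (standard error 0.077, edgeR adjusted p = 0.0112), and from 1 h to 3 h it fell by 0.33 (edgeR adjusted p = 0.0204).

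From 1 h to 3 h, 3 of the 10 genes were thus called lower (Dnajb1, Hspa1a and Bag3), where 3.31% of all genes were called and 1.98% were lower. Dnajb1 and Bag3 did not overlap between these times, which held in that direction for 1.75% of all genes. At 1 h against naive in both genotypes, Dnajb1 alone did not overlap, against 1.55% of all genes higher. In WT alone, 4 of the 10 lay above naive at 1 h without overlap (Hspa1a, Hspa1b, Dnajb1 and Bag3), against 7.52% of all genes. Under the Tob-KO label, Hspa1a, Hspa1b and Bag3 overlapped naive at 1 h and Dnajb1 did not. The share of all genes without overlap is not given for that label, so the genotypes cannot be compared by these counts. The median log2 fold change of the 10 genes at 1 h was 0.07 and that of all genes -0.00303, since most members did not move.

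One library carries much of the spread at 1 h. Replicate 2 of the Tob-KO label at 1 h had the highest level of the 24 for 4 of the 10 genes, Hspa1a, Hspa1b, Dnajb1 and Bag3. Its ratio to the mean of the other 2 libraries of its group was 1.88 for Hspa1b, 1.33 for Dnajb1 and 1.27 for Bag3, and Hspa1a was at 20.7 CPM against 10.2 and 10.5 CPM. Hspb1 also had a ratio of 1.33, at rank 2 of the 24. For Hspa8, Hsp90ab1 and Hsp90aa1 the ratio was 1.03, 1.04 and 1.06. Replicate 2 was thus above the range of the other 23 libraries for Hspa1a, Hspa1b, Dnajb1 and Bag3. It was within that range for the other genes of the 10, Hspb1 and Hsp90aa1 included. Without it, Dnajb1 at 1 h against naive in both genotypes was at 0.52 (edgeR adjusted p = 0.000704) and Bag3 at 0.28 (edgeR adjusted p = 0.0438), both still called. Hspa1a was then at 0.29 and not called (edgeR adjusted p = 0.126), and Hspa1b was at 0.36 (edgeR adjusted p = 0.206). Within the genotype labelled Tob-KO, leaving it out took Hspa1a from 0.43 to 0.01, Hspa1b from 0.42 to 0.05, and Dnajb1 from 0.67 to 0.52, which was then not called (edgeR adjusted p = 0.0789). From 1 h to 3 h without it, Dnajb1 fell by 0.40 (edgeR adjusted p = 0.00294) and was the 1 member called, with Hspa1a at -0.35 (edgeR adjusted p = 0.0919) and Bag3 at -0.27 (edgeR adjusted p = 0.0724).

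**Figure D2:**
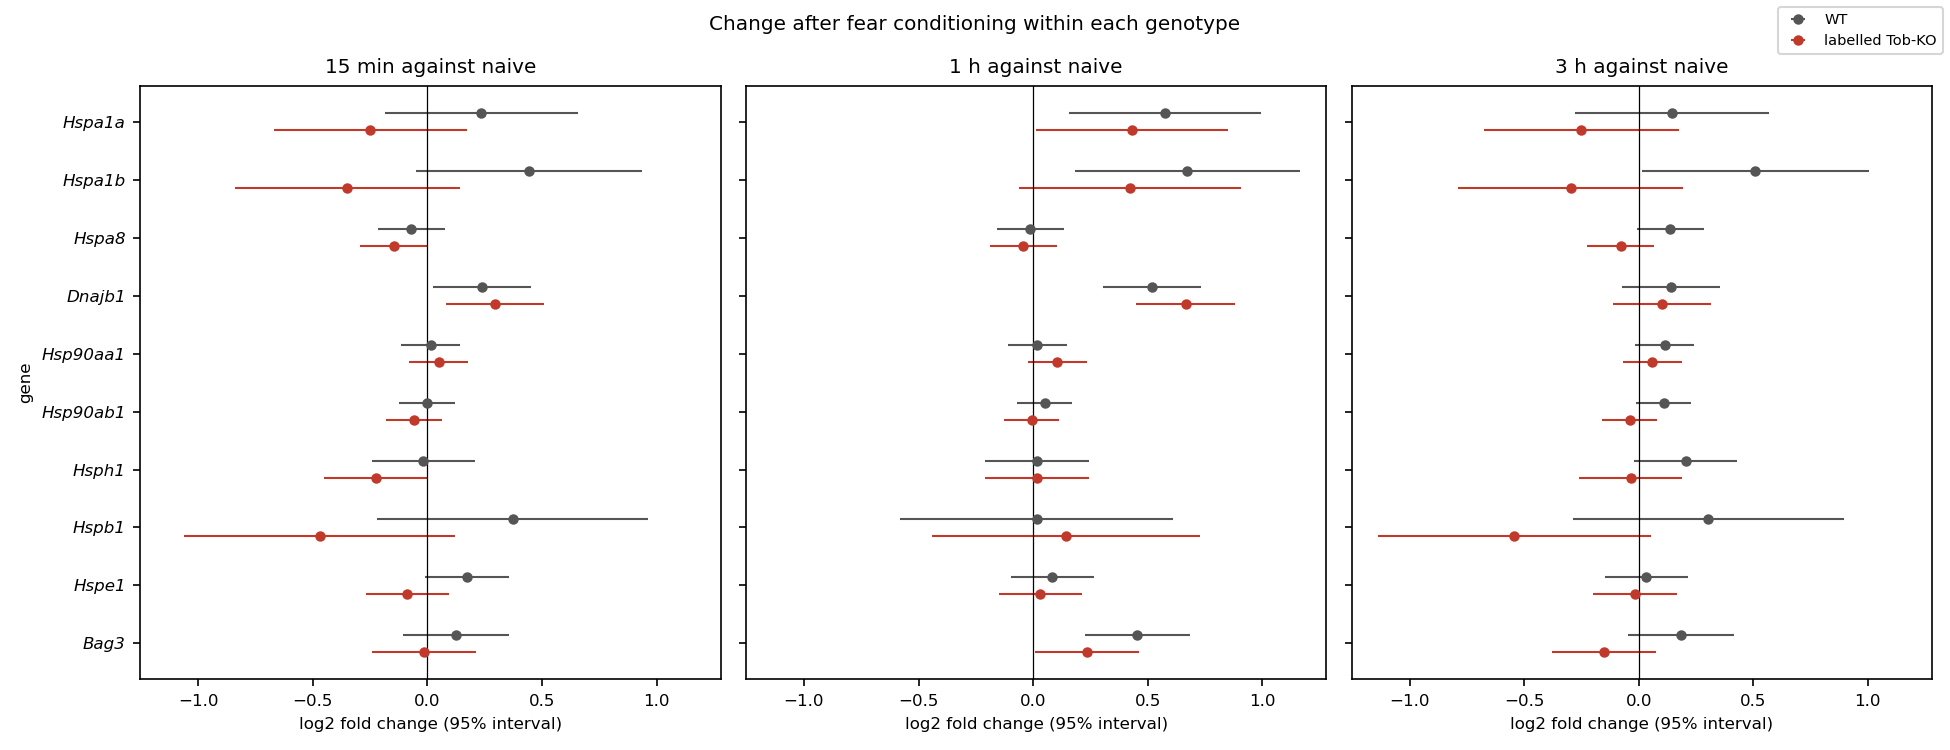
Log2 fold change against naive mice (horizontal axis) of each gene at the 3 times after conditioning, in WT (grey) and in the libraries labelled Tob-KO (red). Points are edgeR quasi-likelihood estimates with 95% confidence intervals. Dnajb1 is at 0.52 and 0.67 at 1 h, and Hspa8, Hsp90aa1 and Hsp90ab1 lie near 0 with short intervals.

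The abundant genes gave tight intervals around small values. Their loci on GRCm38 are chr9:40800984-40810087 (Hspa8), chr12:110690605-110702728 (Hsp90aa1) and chr17:45567775-45573271 (Hsp90ab1). Hspa8, the constitutive HSP70, had its lowest, median and highest values at 1526, 1596 and 1759 CPM in the 6 naive libraries and at 1521, 1584 and 1624 CPM at 1 h. Its log2 fold change at 1 h was -0.03 (95% confidence interval -0.13 to 0.08). Hsp90aa1, the inducible HSP90, ran from 1038 through 1104 to 1161 CPM in naive mice and from 1098 through 1136 to 1217 CPM at 1 h, with 0.06 (95% confidence interval -0.03 to 0.15). Hsp90ab1, the constitutive HSP90, ran from 1607 through 1749 to 1833 CPM and from 1692 through 1756 to 1837 CPM, with 0.02 (95% confidence interval -0.06 to 0.11). For these 3 genes the intervals at 1 h thus leave no room for a change of the size of Dnajb1. Of the transcript windows of Hspa8, 56.0% occur in other annotated genes such as Gm26825 and Gm15459, and of those of Hsp90aa1, 36.2%, so their counts may be incomplete.

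Hsph1, which encodes the HSP110 exchange factor, had a lowest, median and highest value of 320, 359 and 414 CPM in naive mice and of 336, 363 and 397 CPM at 1 h, with a log2 fold change of 0.02 (95% confidence interval -0.14 to 0.18). Hspe1 was at 36.5, 41.4 and 46.0 CPM in naive mice and at 38.7, 42.8 and 46.5 CPM at 1 h, with 0.06 (95% confidence interval -0.07 to 0.19). The small heat shock gene Hspb1 was at 3.86, 5.88 and 7.95 CPM in naive mice and at 4.15, 6.32 and 8.75 CPM at 1 h, with 0.08 (95% confidence interval -0.34 to 0.50). A change of the size of Dnajb1 thus lies outside the intervals of Hsph1 and Hspe1, while that of Hspb1 is wide. Hspe1 overlaps 112 bp of exon of Hspd1 on the opposite strand, and reads there could be assigned to either if strand was not used in counting. Of the transcript windows of Hspb1, 36.6% occur in other annotated genes such as Hsp25-ps1 and Gm9817, and 14.1% of those of Hspe1 do. The counts of Hspb1 and Hspe1 may thus be incomplete too.

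At 15 min none of the 10 genes was called in either genotype alone (0.0462% of all genes in WT, 2.51% in the libraries labelled Tob-KO), with 1 member in WT and 3 in those labelled Tob-KO at an unadjusted p under 0.05 by edgeR, beside 1699 and 3383 of all 19500 genes, and 0 members called by DESeq2 in each. Hspa8 and Hsph1 in the libraries labelled Tob-KO lay below the naive libraries without overlap, as 10.3% of all genes did, at -0.15 and -0.23 (edgeR adjusted p = 0.282 and 0.287). At 3 h none was called in either genotype or in both by edgeR (0% of all genes in each). DESeq2 also called 0 of the 10, and of all genes it called 0 in WT, 27 under the Tob-KO label and 22 in both genotypes. At an unadjusted p under 0.05 by edgeR there was 1 member in WT and 0 in the others, beside 779, 2071 and 1746 of all genes. All the same, 6 of the 10 genes lay above naive without overlap in WT at 3 h, where 4.34% of all genes did: Hspa1b, Hspa8, Dnajb1, Hsp90aa1, Hsp90ab1 and Hsph1. Their log2 fold changes in WT were between 0.11 and 0.51, with an edgeR adjusted p of 1 for each. Under the Tob-KO label at 3 h, none of the 10 was free of overlap with naive, and the share of all genes there is not given.

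The second question is whether the genotype changed these genes or their time course. The rule was that of edgeR's exact test at an adjusted p of at most 0.05 with a fold of at least 2. None of the 10 genes was called between the libraries labelled Tob-KO and WT in naive mice, at 15 min, at 1 h or at 3 h. Of all genes, 0.0218%, 0.555%, 0.033% and 0.0274% were. At an unadjusted p under 0.05, edgeR gave 1, 1, 1 and 3 of the 10, beside 742 of 18364 genes in naive mice, 1478 of 18364 at 15 min, 970 of 18169 at 1 h and 725 of 18255 at 3 h, and DESeq2 called 0 at each time, as did edgeR's exact test without the fold limit. Over all time points, 0 of the 10 was called by the quasi-likelihood test (0.421% of all genes), 1 had an unadjusted p under 0.05 (Bag3, at 0.12) beside 2638 of 19500 genes, and DESeq2 called 0. The pooled log2 fold changes ran from -0.06 to 0.12 over the 10 genes. Markers of other cells differed by genotype at 15 min, where all 12 choroid plexus markers were called higher in the libraries labelled Tob-KO (median log2 fold change 4.17) and 2 of the 6 red cell and neutrophil markers lower (median -1.16). Of the 6 oligodendrocyte markers there (median 0.24), 0 were called and 5 had an unadjusted p under 0.05 by edgeR. No listed marker was called at 1 h. The 6 fibroblast markers then had a median of 0.57, with 5 at an unadjusted p under 0.05 by edgeR. The 6 oligodendrocyte markers had a median of -0.18 at 1 h, with 4 under that limit. The part of such cells in the members' values was not tested.

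The signs by time were uneven. The log2 fold change between genotypes was above 0 for 8 of 10 genes in naive mice, for 3 at 15 min, for 10 at 1 h and for 1 at 3 h. Of other chaperone genes tested, 41 of 72, 28 of 72, 37 of 72 and 16 of 73 were above 0 at these times. Among them, the 12 endoplasmic reticulum chaperones had 11, 0, 10 and 0 above 0, so such signs were not particular to the 10 genes. Hspa1b was at 0.44 in naive mice (95% confidence interval 0.07 to 0.80) and at -0.38 at 3 h (95% confidence interval -0.70 to -0.05), with an edgeR adjusted p of 1 at both times. Hspb1 was at 0.47 at 1 h (95% confidence interval 0.09 to 0.85, edgeR adjusted p = 0.731) and at -0.51 at 15 min and at 3 h. For Dnajb1 the values were -0.07 in naive mice, -0.02 at 15 min, 0.07 at 1 h and -0.12 at 3 h, with intervals that reached from -0.26 to 0.29 over the 4 times. A doubling between genotypes thus lies outside every interval of Dnajb1.

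**Figure D3:**
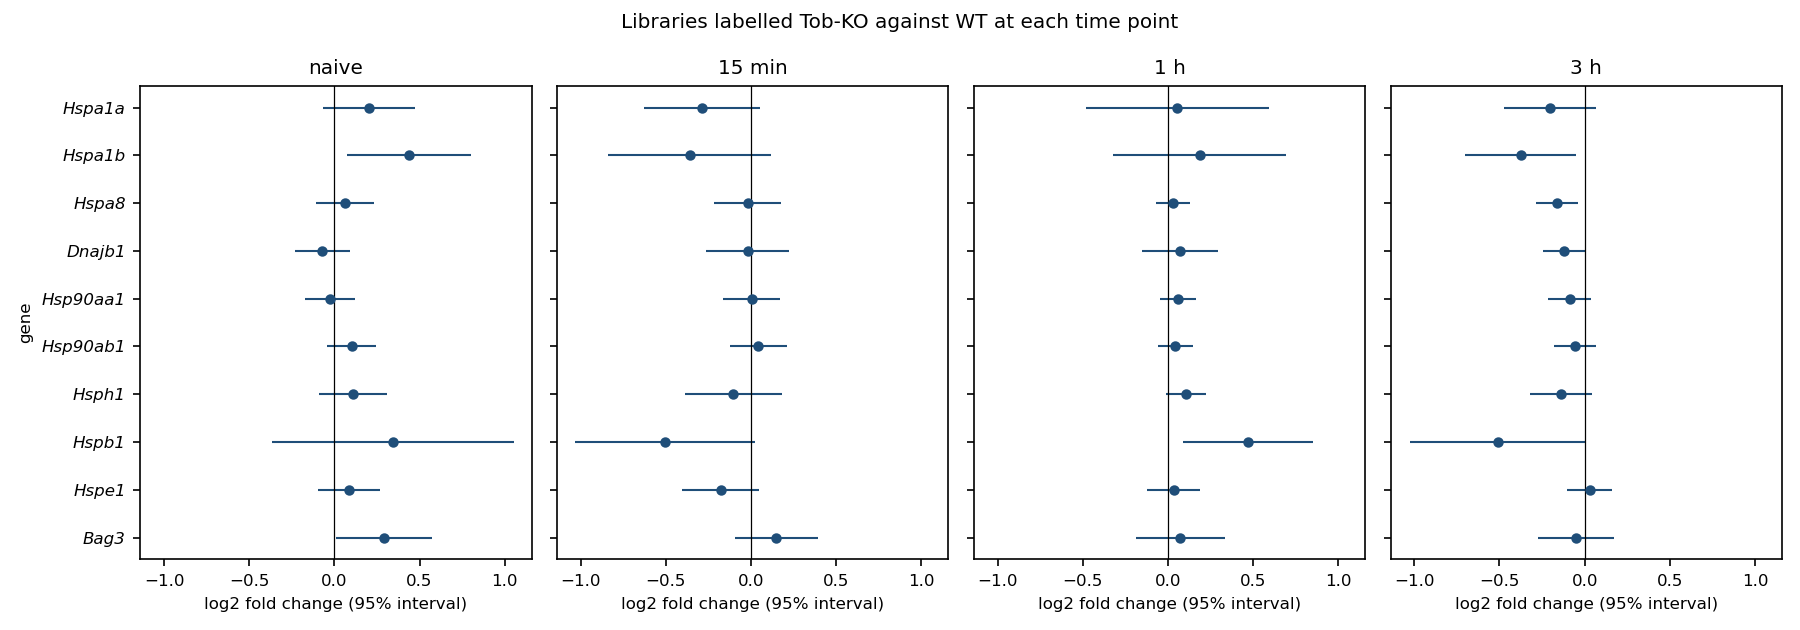
Log2 fold change of the libraries labelled Tob-KO against WT (horizontal axis) for each of the 10 genes at each time point. Points are edgeR exact test estimates and bars are 95% confidence intervals built from the standard error of a quasi-likelihood fit of the same 6 libraries. No gene was called, and the intervals are short for Hspa8, Hsp90aa1 and Hsp90ab1 and long for Hspb1.

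The difference between genotypes in the change after conditioning was tested as an interaction. No gene of the table passed at any time (0% of 19500 genes), by edgeR's quasi-likelihood test, and DESeq2 called none of the 10. At an unadjusted p under 0.05, 3 of the 10 passed at 15 min, 0 at 1 h and 4 at 3 h, beside 939, 809 and 924 of all 19500 genes. For Dnajb1 the interaction at 1 h was 0.14 (95% confidence interval -0.16 to 0.45), for Hspa1a -0.14 (95% confidence interval -0.74 to 0.45) and for Bag3 -0.22 (95% confidence interval -0.54 to 0.10). The rise of Dnajb1 in WT and in the libraries labelled Tob-KO was thus not distinguishable, within an interval that still allows a difference as large as 0.45.

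At 3 h the interaction was below 0 for each of the 10 genes, with a median of -0.23 beside 0.01 over all genes. It was -0.81 for Hspa1b (95% confidence interval -1.50 to -0.11), -0.85 for Hspb1 (-1.69 to -0.01), -0.22 for Hspa8 (-0.42 to -0.01) and -0.34 for Bag3 (-0.66 to -0.01), each with an edgeR adjusted p of 0.894. Hspa1b in naive mice and at 3 h shows the numbers behind it, 8.17, 10.7 and 10.6 CPM against 15.7, 11.7 and 14.7 CPM in WT, and 10.8, 14.9 and 14.1 CPM against 9.80, 12.8 and 9.97 CPM under the Tob-KO label. None of these 4 values passed the adjusted threshold. Values below 0 were not particular to the 10 genes: of 73 other chaperone genes tested, 19 were above 0 (median -0.06), none of the 12 endoplasmic reticulum chaperones was (median -0.39, 9 at an unadjusted p under 0.05 by edgeR), and none of the 12 choroid plexus markers was (median -2.28, 0 at an unadjusted p under 0.05). The part of choroid plexus in the members' interaction was not tested.

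Other chaperone genes, 74 in 9 lists with 73 tested, put these changes in context. At 1 h against naive in both genotypes, 8 were called higher and 1 lower, and the median log2 fold change of the 73 was 0.05, with 54 above 0. Of all genes at that time, 5.89% were called and 2.36% as higher. At 15 min 1 was called higher, where 4.35% of all genes were called and 1.6% as higher, and at 3 h none by edgeR, with 12 at an unadjusted p under 0.05 and 0% of all genes called. Among 8 other cytosolic J-domain genes, 2 rose at 1 h, Dnajb4 by 0.18 (edgeR adjusted p = 0.00644) and Dnaja1 by 0.12 (edgeR adjusted p = 0.0487), both partners of HSP70, and Dnajb2, a neuronal J-domain gene, rose by 0.22 at 15 min (edgeR adjusted p = 0.00730). Of 8 other HSP70 and HSP110 genes, 7 were above 0 at 1 h, but the 1 called, Hspa12b, an HSP70 relative of endothelial cells, fell by 0.39 (edgeR adjusted p = 0.0370).

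The chaperonins moved by small amounts. Hspd1, the partner of Hspe1 in the mitochondrial chaperonin, rose by 0.17 at 1 h (edgeR adjusted p = 0.0168), and Hspa9, the mitochondrial HSP70, by 0.13 (edgeR adjusted p = 0.0173), 2 of 7 mitochondrial chaperone genes. Of the 8 subunits of the cytosolic chaperonin TRiC, 3 were called higher at 1 h, Cct4 and Cct6a at 0.12 and Cct8 at 0.10 (edgeR adjusted p = 0.0405, 0.0199 and 0.0227), and all 8 were above 0. Of 12 co-chaperones of HSP90 and HSP70, 1 was called, Cacybp at 0.14 (edgeR adjusted p = 0.0424). None was called among 6 genes of the HSF list at 1 h (2 at an unadjusted p under 0.05 by edgeR), 7 BAG and related genes (1), 5 other small heat shock genes (0) and 12 endoplasmic reticulum chaperones (0). The largest of these called values, 0.39 in size, was thus smaller than that of Dnajb1.

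**Figure D4:**
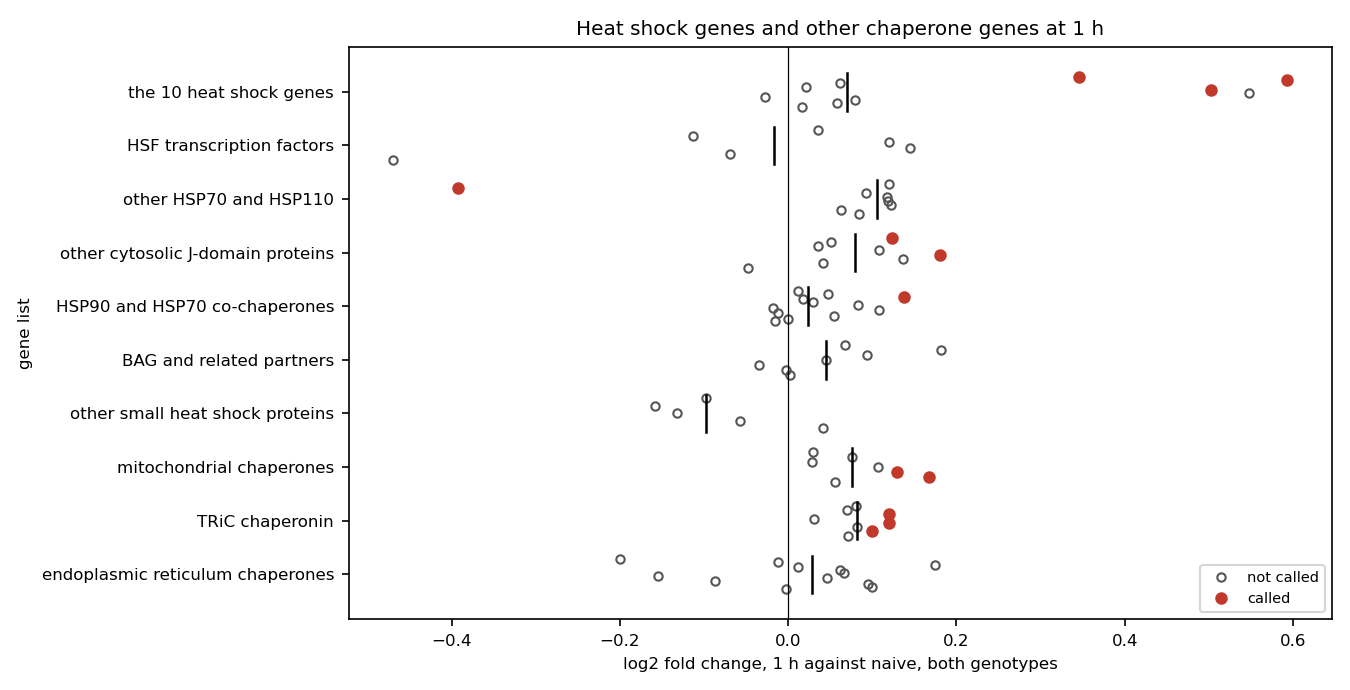
Log2 fold change at 1 h against naive mice in both genotypes (horizontal axis) for the 10 heat shock genes and for 9 lists of other chaperone genes. Each point is a gene, filled red where called by edgeR, and the vertical tick is the list's median. Dnajb1, Hspa1a and Bag3 stand at 0.35 to 0.59, and the called genes of the other lists at 0.10 to 0.18, with Hspa12b at -0.39.

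Immediate early genes, which report neuronal activation, gave a check of the time course with both genotypes combined. All 8 on the list (Fos, Fosb, Junb, Egr1, Egr2, Arc, Npas4 and Nr4a1) were called higher at 15 min, with a median log2 fold change of 1.09, and 7 at 1 h, with a median of 0.96. At 3 h none was called, with 1 at an unadjusted p under 0.05 by edgeR. Fos was at 2.13 at 15 min and 1.67 at 1 h, and Npas4 was at 1.62 at 15 min and 0.29 at 1 h, where it was not called (edgeR adjusted p = 0.297). Dnajb1 had 0.33 from 15 min to 1 h, a call that most fits without 1 library lost, while Npas4 fell by 1.32 between these times (edgeR adjusted p = 0.000161) and Fos had -0.45 (edgeR adjusted p = 0.293). Between the Tob-KO label and WT, none of the 8 early genes was above 0 at any time, and none was called. Their medians were -0.57 in naive mice, -0.30 at 15 min, -0.11 at 1 h and -0.60 at 3 h. By edgeR's exact test 7, 0, 2 and 8 of them had an unadjusted p under 0.05, so the naive reference differed between labels.

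The 8 genes outside the set whose levels over the 24 libraries were most like the mean profile of the 10 were found among 14439 genes with a mean of at least 1 CPM. They were Hexim1 (Pearson's r = 0.80, Spearman's rho = 0.75), Creld2 (0.75 and 0.76), Stip1 (0.74 and 0.81), P4ha1 (0.74 and 0.73), Dnajb4 (0.73 and 0.69), Dnaja1 (0.73 and 0.75), St13 (0.73 and 0.70) and Fkbp4 (0.73 and 0.80). Stip1, St13 and Fkbp4 encode co-chaperones of HSP70 and HSP90, Dnajb4 and Dnaja1 encode J-domain proteins, and Creld2 encodes an endoplasmic reticulum protein. The 24 points of each value share their libraries, depth and normalization, and the values describe these libraries only.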

How the data were processed

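Hippocampal poly(A) RNA libraries (directional kit, 150-base paired reads) were mapped by the authors to GRCm38 with STAR 2.6.1d and counted per gene with HTSeq 0.9.0, and the raw counts were deposited as 1 table with a column per library. The strand setting, annotation and treatment of multiply mapped reads were not given in the sources used here. Levels are TMM-normalized CPM. The design states biological replicates, and replicate pairs of a group differed by 3.68 to 22.8 times the counting variance (chi-square per degree of freedom), so none was a duplicate. The column names show that duplicates were marked, and reads carry no molecular identifiers. Confidence intervals (95%) come from the quasi-likelihood standard errors and cover the spread between mice.

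Genotype at each time was tested by edgeR 4.0.16 (R 4.3.3) with the exact test on 6 libraries, after a filter of 0.2 CPM in 2 libraries, at an adjusted p of at most 0.05 and a fold of at least 2, as in the study. All else used the quasi-likelihood test over 24 libraries (16 residual degrees of freedom) with no fold limit. Scripts were tested on simulated data. Log2 CPM for scores and profiles used a prior count of 2. Every member was named in each comparison, with Tob1, the immediate early genes, up to 3 called genes of each chaperone list with the largest change, and the 8 genes nearest in profile. The members and lists were chosen with earlier results of these data known. Of gene names, 94.8% matched 1 gene of the GENCODE annotation. Alternatives were DESeq2 1.42.0, RLE scaling, no filter, a replicate block, a choroid plexus covariate, other library sets and fold limits, and each library left out.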

Additional observations from a re-analysis of the deposited data

How the results depend on the processing

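No called log2 fold change of a member, nor that of Hspa1b at 1 h, changed its direction under the alternatives run. Members called at 1 h against naive were 2 with DESeq2, 0 with the replicate block, 0 with a fold of at least 2 and 3 with the exact test on 6 libraries in WT (main 1), and 0 with that fold limit and 0 with only the 6 libraries compared in the libraries labelled Tob-KO (main 1). In both genotypes they were 0 with that fold limit at 15 min, at 1 h, from 15 min to 1 h and from 1 h to 3 h, 0 at 15 min with the choroid plexus covariate, and 3 from 15 min to 1 h with DESeq2. The cause was not tested, other than that no member reached the fold limit of 2. The calls over all genes are not given for these alternatives. A shift in the member counts thus cannot be told apart from a shift over all genes. Replicate numbers are shared by the groups, and no pair of groups had all 3 correlations of same-numbered libraries above 0.1. The highest mean was 0.245, between naive and 15 min of the Tob-KO label (0.32, 0.36 and 0.06). This rule cannot decide whether some of these libraries shared a batch. Under the replicate block 0 members were called at 15 min and 0 from 15 min to 1 h, and Dnajb1 had an edgeR adjusted p of 0.0577 at 1 h in WT. Hspa1b at 1 h in both genotypes was called without the low-count filter (edgeR adjusted p = 0.0282), with DESeq2 (adjusted p = 0.0126), with the block (0.0402) and with the covariate (0.0477). Leaving out 1 library gave 0 to 1 members at 1 h in WT, 0 to 1 at 1 h in those labelled Tob-KO, 0 to 2 at 15 min, 2 to 4 at 1 h, 0 to 1 from 15 min to 1 h and 1 to 3 from 1 h to 3 h in both genotypes, and 0 to 0 in each of the other comparisons. Of all genes, these fits called 0 to 69 at 1 h in WT and 0 to 411 at 1 h in those labelled Tob-KO. In both genotypes they called 317 to 1315 at 15 min and 572 to 1262 at 1 h. Between times they called 13 to 225 from 15 min to 1 h and 315 to 753 from 1 h to 3 h. Dnajb1 at 1 h and from 1 h to 3 h and Bag3 at 1 h in both genotypes were called in all 24 such fits. The edgeR adjusted p of Dnajb1 rose to between 0.0549 and 0.155 at 1 h in WT without any 1 of the naive, 1 h or 3 h WT libraries, to 0.0603 and 0.0789 at 1 h in those labelled Tob-KO without naive replicate 1 or 1 h replicate 2, and to between 0.0621 and 0.109 at 15 min without WT naive 2 or 3, WT 15 min 1 or 2, or Tob-KO naive 1 or 2 or 15 min 1 or 3. Without WT 15 min 3, Hspa8 was called lower at 15 min (-0.15, edgeR adjusted p = 0.0499). From 15 min to 1 h the call of Dnajb1 was lost in 18 of 24 fits (edgeR adjusted p 0.0524 to 0.156) and kept without WT naive 1, WT 15 min 1, or Tob-KO naive 1 or 3, 15 min 1 or 1 h 1. Hspa1a at 1 h was lost in 9 (0.0514 to 0.126: any naive library, WT 1 h 2 or 3, or Tob-KO 1 h 2) and from 1 h to 3 h in 7 (0.0603 to 0.0919: WT 1 h 2 or 3, WT 3 h 2 or 3, Tob-KO 1 h 2, or Tob-KO 3 h 1 or 3). Bag3 from 1 h to 3 h was lost in 3 (0.0534 to 0.0724: WT 1 h 3, WT 3 h 3 or Tob-KO 1 h 2). Hspa1b at 1 h was called in 5 (0.0321 to 0.0457: without WT 15 min 1 or 2, WT 1 h 1, or Tob-KO 1 h 1 or 3). With 3 mice per group, the printed intervals give the sizes of change that these data allow, also for genes that were not called.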
